A study of Mus musculus with 2 samples.

Results

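Immediate early genes are the genes that cells switch on first after a stimulus, before any new protein has to be made. Their transcription is triggered by kinases that act on factors already bound at the promoter, among them serum response factor and CREB, and their mRNAs are short-lived. Several of the encoded proteins are transcription factors: Fos and Jun proteins pair through leucine zippers to form AP-1. In skeletal muscle, members of this class are known to respond to contraction, injury and handling of the tissue. The genes described here are a list of 10 symbols: Fos, Fosb, Jun, Junb, Jund, Egr1, Atf3, Ier2, Nr4a1 and Zfp36. They were found by symbol in the transcript tables made directly from reads and joined by gene identifier to the gene tables, and all 10 of 10 were found among 55536 annotated genes.

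The tissue was the gastrocnemius, a calf muscle, taken on day 4 after birth from male mice of the strain B6CASTF1/J from The Jackson Laboratory, a cross of C57BL/6J and CAST/EiJ mice. No treatment is given, and the libraries form 1 group of 2 biological replicates, which share a donor entry but carry separate animal numbers. Total RNA was sequenced from an input of 300 ng, to which ERCC spike-ins, synthetic RNAs of known amount, had been added. An expected count is the quantifier's estimate of the reads that belong to a gene, and annotated genes summed to 35281187 of them in replicate 1 and to 32301531 in replicate 2. Skeletal muscle markers were abundant in both libraries, with Acta1 at 13742 and 12991 TPM (a transcript level normalised for length and for the sum over the library). With 1 library per animal and no second group, a difference between the libraries has no replicate check and is given without a p-value, and animal, dissection and library preparation cannot be separated. In whole muscle, fewer cells of a type and less RNA per cell cannot be told apart either.

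Most of the 10 genes are compact. Most also hold ATTTA in the 3′ untranslated region, a short sequence known from AU-rich decay signals but present in most expressed protein-coding genes too. In the GENCODE M21 annotation of mm10 the median gene spanned 3852.5 bases, against 25040 bases for 12167 protein-coding genes at 1 TPM or more in both libraries, and 9 of the 10 were shorter than that median. The leading coding transcript, the one of highest mean TPM, had 1 exon in 5 of the 10 genes (Jun, Junb, Jund, Ier2 and Zfp36), against 2.75% of those protein-coding genes. Zfp36 also has a coding transcript of 2 exons, Zfp36-201, with 32.5% and 20.8% of the gene in replicates 1 and 2 from alignments. The AU-rich pentamer ATTTA stood in the 3′ untranslated region of the leading transcript in 9 of 10 members and in 62.9% of the protein-coding genes. The longer core TATTTAT stood in 6 of 10 members and in 26.0% of them, and TTATTTATT in 2 of 10 and 6.60%. The regions had similar lengths, with a median of 791 bases in the members and 888 bases in the protein-coding genes. Ier2 had no ATTTA in its 755 bases.

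The windows of 30 bases below show the AU-rich stretch of 5 members, each read 5′ to 3′ from the GENCODE transcript with every ATTTA in capitals. They are the 2 members with TTATTTATT (Fos and Zfp36), and Jun, Atf3 and Jund, genes of leucine zipper factors with 1 TATTTAT each. Jund, the most abundant gene, has 1 pentamer in all, which lies in its TATTTAT. Fosb, which also has 1 TATTTAT, is not shown.
Fos-201, bases 642 to 671 after the stop codon: ttgtgttttcaATTTATTTAttaagatgga
Zfp36-202, bases 570 to 599: ccctttATTTAtgacgactttATTTAttgt
Jun-201, bases 1159 to 1188: tttgcttgtgcatATTTAtaatagcgttcg
Atf3-201, bases 1115 to 1144: gaaaatattacttATTTAtcccagtattcc
Jund-201, bases 275 to 304: ccgattccgccctATTTAtgtttctactcg
In Fos 2 pentamers overlap by 1 base, whereas those of Zfp36 are set apart. A match describes the sequence and is no measure of decay, which these data do not contain.

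Promoter windows of RefSeq (GRCm38.p6, 250 bases before to 50 after the gene start) were matched by symbol for 8 members, all but Egr1 and Ier2. For Jund the RefSeq start, at base 70697739 of chromosome 8, lies upstream of the GENCODE start at 70698949. Its window therefore ends before Jund-201, the transcript measured here, begins. The Jund window held none of the motifs searched, and it is counted among the 8 throughout. TGACG on either strand, the first 5 letters of the CREB site TGACGTCA and chosen after the sequences were seen, stood in 5 of 8 windows (Fos, Fosb, Junb, Atf3 and Nr4a1). It stood in 30.6% of 12249 windows of expressed protein-coding genes and in 20.9% of all 32544 windows. The full TGACGTCA stood in none of the 8 and in 2.93% of expressed and 1.80% of all windows, and the AP-1 site TGANTCA in none and in 4.89% and 7.79%. The Egr site GCGNGGGCG stood in 3 of 8 (Fosb, Zfp36 and Nr4a1) and in 10.7% of expressed and 5.60% of all windows. The GC box GGGCGG, which can overlap it, stood in 6 of 8, and in 63% and 35.9%. The Ets site CCGGAA stood in 2 of 8 (Zfp36 and Nr4a1), and in 26.8% and 15%. The CArG box, the site of serum response factor, stood in 1 of 8 (Zfp36) and in 1.34% of expressed and 1.64% of all windows, and the absence of a match says only that these letters are not in the window.

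Stretches at the start are shown for the genes that hold TGACG or the CArG box. TGACG is only a part of the CREB site, and whether any match shown here is in use was not tested. Capitals mark TGACG, its reverse complement CGTCA and the TATAAA of Fos, and in Zfp36 the CArG box. Each is read 5′ to 3′ on the strand of the gene. The first 4 lie outside annotated exons, and the last pair, which touch exons of Zfp36-201 and Atf3-201, are limited to 30 bases, those of Atf3 running across its start.
Fos, plus strand, chr12:85473760-85473889: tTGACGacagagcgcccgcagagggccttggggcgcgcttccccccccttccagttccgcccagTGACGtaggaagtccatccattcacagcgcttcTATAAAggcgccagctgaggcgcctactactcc
Fosb, minus strand, chr7:19310052-19310175: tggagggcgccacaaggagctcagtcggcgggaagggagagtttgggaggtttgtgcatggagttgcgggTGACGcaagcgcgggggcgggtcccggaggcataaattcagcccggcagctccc
Junb, minus strand, chr8:84978749-84978878: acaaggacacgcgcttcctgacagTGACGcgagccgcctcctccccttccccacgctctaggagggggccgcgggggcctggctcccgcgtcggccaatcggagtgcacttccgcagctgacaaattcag
Nr4a1, plus strand, chr15:101266716-101266845: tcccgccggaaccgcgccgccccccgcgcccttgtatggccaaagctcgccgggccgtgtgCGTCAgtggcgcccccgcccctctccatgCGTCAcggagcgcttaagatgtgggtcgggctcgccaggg
Zfp36, minus strand, chr7:28379267-28379296: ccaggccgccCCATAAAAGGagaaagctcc
Atf3, minus strand, chr1:191183324-191183353: attaatagcattaCGTCAgcctgggattgg
In Fos the TATAAA begins 33 bases before the start, and TATAAA stood in 2 of 8 windows, in 7% of expressed and in 13.6% of all. The other, in Junb, begins at the RefSeq start itself, which lies 30 bases upstream of the GENCODE start, so that it counts only in the 300-base window.

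Mean levels of the 10 genes ran from 0.85 TPM for Fosb to 89.1 TPM for Jund, and Jund and Jun led the order. In the middle of the order the levels were close together. Of the 9 pairs of neighbours in the order Jund, Jun, Egr1, Nr4a1, Ier2, Fos, Atf3, Junb, Zfp36 and Fosb, the values of Egr1 and Nr4a1, of Nr4a1 and Ier2, and of Fos and Atf3 overlapped between the animals. The other neighbours did not overlap. The 10 levels had medians of 9.04 and 7.74 TPM in replicates 1 and 2, and 3 of the 10 genes lay above 10.85 TPM, the median of 12172 protein-coding genes at 1 TPM or more in both libraries.

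**Figure D1:**
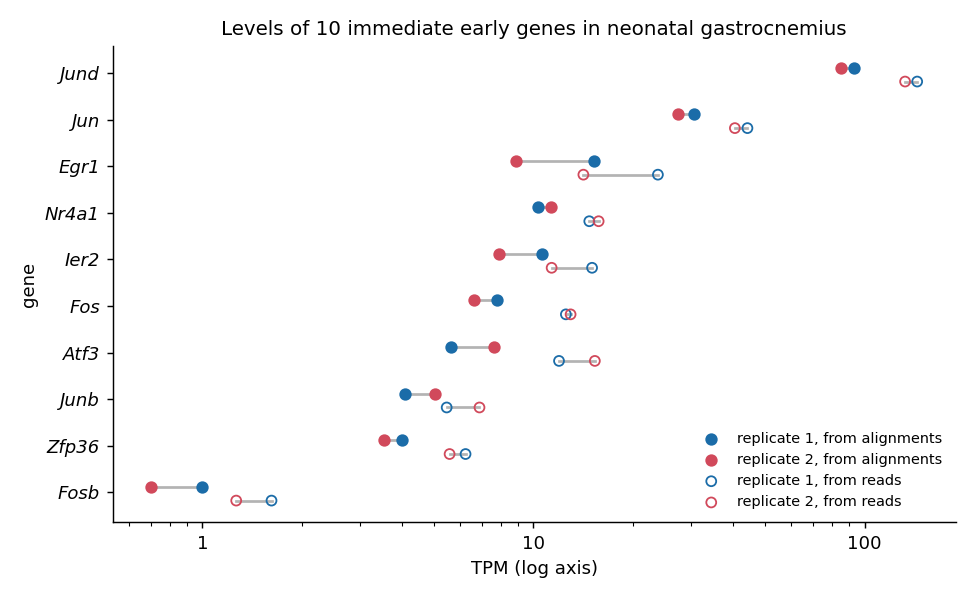
Level of each gene in TPM (log axis) in replicate 1 (blue) and replicate 2 (red), from alignments (filled) and directly from reads (open). Jund is the highest and Fosb the lowest in every library and quantification, and the widest relative gap between the animals within a quantification is that of Egr1, at 15.3 and 8.87 TPM from alignments.

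The Jun proteins are the AP-1 subunits that can bind DNA as pairs among themselves or with Fos proteins. Jund (ENSMUSG00000071076.6, chromosome 8, 70698949 to 70700616, plus strand), the member known for steady rather than induced expression, was measured at 93.0 and 85.1 TPM in replicates 1 and 2. It was higher than 94.2% of expressed protein-coding genes. Jun (ENSMUSG00000052684.4, chromosome 4, 95049034 to 95052222, minus strand), the founding subunit, stood at 30.5 and 27.3 TPM. Junb (ENSMUSG00000052837.6, chromosome 8, 84974484 to 84978718, minus strand), known as a weaker activator than Jun, stood at 4.10 and 5.03 TPM.

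Within the family the proportions were nearly the same in both animals. Jund made up 72.7% ± 0.327 (SD, n = 2) of the summed TPM of the 3 Jun genes, Jun 23.6% ± 0.430 and Junb 3.75% ± 0.756. Jun-201 and Jund-201 are the only annotated transcripts of their genes, each of 1 exon. Junb-201 held 201 and 230 of the 202 and 231 counts of Junb. Genes on the opposite strand overlap all 3, and with no statement that counts were made by strand, reads in the overlaps cannot be assigned with certainty. Junos, with 26 and 28 counts, overlaps Jun, and Gm11175, with 40 and 25, overlaps Jund. Prdx2, a peroxiredoxin gene with 3528 and 3399 counts, overlaps Junb-202 but not Junb-201.

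The Fos proteins cannot pair among themselves and need a Jun partner. Fos (ENSMUSG00000021250.13, chromosome 12, 85473890 to 85477273, plus strand), the archetype of induced genes, stood at 7.75 and 6.62 TPM from 427 and 302 counts. Fosb (ENSMUSG00000003545.3, chromosome 7, 19302696 to 19310051, minus strand) was the lowest member at 1.00 and 0.7 TPM from 101 and 65 counts, and the only one below 1 TPM in a library. The family was led by a relative that is no member, Fosl2, at 13.6 and 11.9 TPM. Fosl2 made up 61.3% ± 0.743 of the Fos family TPM, Fos 34.5% ± 0.287 and Fosb 4.05% ± 0.602, while Fosl1 had 0 and 2 counts. The summed TPM of the Jun family exceeded that of the Fos family 5.71-fold in replicate 1 and 6.09-fold in replicate 2.

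Atf3 (ENSMUSG00000026628.13, chromosome 1, 191170296 to 191218039, minus strand), a stress-induced bZIP factor that can pair with Jun proteins, stood at 5.65 and 7.59 TPM. It was the only member whose gene, at 47744 bases, was longer than the median protein-coding gene. Egr1 (ENSMUSG00000038418.7, chromosome 18, 34859823 to 34864984, plus strand), a zinc finger transcription factor induced by growth factors, was at 15.3 TPM in the first animal and 8.87 TPM in the second. Replicate 1 held 1402 of its counts and replicate 2 held 758, the widest relative gap among the 10 genes. Nr4a1 (ENSMUSG00000023034.7, chromosome 15, 101254269 to 101274795, plus strand), an orphan nuclear receptor, stood at 10.3 and 11.3 TPM with 688 and 680 counts.

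Ier2 (ENSMUSG00000053560.4, chromosome 8, 84661331 to 84662852, minus strand), a small nuclear protein gene without introns, stood at 10.6 and 7.89 TPM. Zfp36 (ENSMUSG00000044786.6, chromosome 7, 28376784 to 28380253, minus strand) encodes tristetraprolin, which binds AU-rich elements and hastens mRNA decay, its own mRNA included. It stood at 4.02 and 3.54 TPM, and its relatives were higher, with Zfp36l1 at 53.8 and 57.3 TPM and Zfp36l2 at 19.3 and 17.4 TPM. An antisense gene, Gm44710, with 9 and 14 counts, overlaps both transcripts of Zfp36. Zfp36 made up 4.87% ± 0.487 of the 3 genes' TPM. In the other zinc finger and receptor families the member was the leading gene: Egr1 made up 72.1% and 53.4% of the TPM of Egr1, Egr2 and Egr3, and Nr4a1 79.6% ± 0.355 of that of Nr4a1, Nr4a2 and Nr4a3.

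Between the libraries the members did not move as a block. The log2 ratio of replicate 2 over replicate 1 was taken from counts after TMM scaling, which sets the bulk of genes equal, and its 95% counting interval covers counting error only. Egr1 was lower in replicate 2 by the largest amount, at -0.79 (interval -0.92 to -0.66), or 1.73-fold. Fosb at -0.54 (-1.01 to -0.08), Ier2 at -0.43 (-0.65 to -0.22) and Fos at -0.40 (-0.62 to -0.19) were lower by less. Atf3 at 0.44 (0.21 to 0.67) and Junb at 0.29 (0.01 to 0.57) were higher in replicate 2. Jun at -0.16 (-0.24 to -0.08) and Jund at -0.13 (-0.20 to -0.07) differed little but beyond counting error. For Zfp36 at -0.21 (-0.47 to 0.04) and Nr4a1 at 0.08 (-0.08 to 0.23) the interval included 0.

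**Figure D2:**
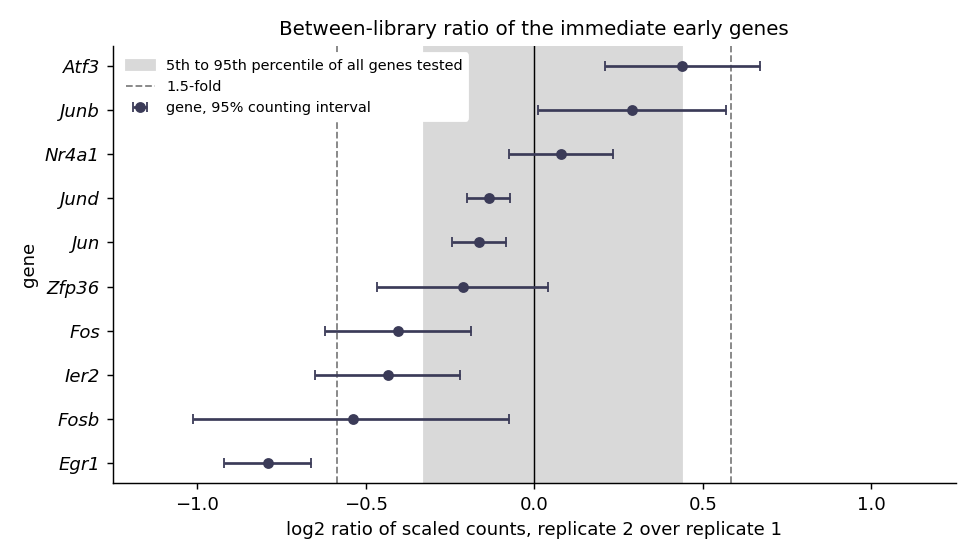
Log2 ratio of scaled counts, replicate 2 over replicate 1, for each gene with its 95% counting interval; the grey band spans the 5th to 95th percentile of 12421 genes averaging at least 100 counts, and dashed lines mark 1.5-fold. Egr1, at -0.79, is the only point beyond a 1.5-fold line, and Fosb, Ier2 and Fos also lie left of the band.

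Set against all genes, the gap of Egr1 was uncommon, and Fos, Ier2 and Fosb also lay outside the central range of ratios. Of the 12421 genes that averaged at least 100 counts, 1.70% differed by more than 2-fold either way, and none of the 10 members did. By 1.5-fold it was 4.04% either way and 0.813% in the direction of lower values in replicate 2, against 1 of the 9 members at that depth. In the direction of higher values it was 3.23%, against 0 of the 9. Fosb, at a mean count of 83, was not among the 9. At a mean count of 1000 to 10000, where Egr1, Jun and Jund lie, 1.42% of genes passed 1.5-fold and 54.3% had an interval that left out 0. At 100 to 1000, where the other 6 lie, these shares were 5.72% and 33.7%. The counting interval left out 0 in 7 of the 9 (8 of the 10 with Fosb) and in 42.5% of all genes tested. It lay below 0 in 5 and above 0 in 2 of the 9, beside 20.8% and 21.7% of all genes tested. The 5th and 95th percentiles of the log2 ratio of all genes were -0.33 and 0.44, so Fos, Ier2 and Egr1, and outside the tested genes Fosb, lay below that range. By definition 5% of all genes tested lie below it. Atf3, at 0.44, lay at its upper edge. The median ratio of the 9 was -0.16, beside 0.00 over all genes tested.

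The related Egr genes went the other way. Egr2, a relative known from nerve and immune cells, stood at 4.12 and 4.44 TPM, with a log2 ratio of 0.36 (0.12 to 0.60). Egr3, which is known from muscle spindles, stood at 1.78 and 3.30 TPM, with a log2 ratio of 0.86 (0.56 to 1.15). Egr1 alone of the 3 was lower in replicate 2. Its share of the family's TPM was 72.1% in replicate 1 and 53.4% in replicate 2, while that of Egr3 was 8.41% and 19.9%.

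Other immediate early genes, from a list of 25 further symbols, showed no common direction between the animals. Of these, 22 reached 1 TPM in both libraries, and the median level was 8.79 TPM ± 0.707 (SD, n = 2), beside 8.39 ± 0.916 for the 10 genes described here. The highest were Rhob, a small GTPase, at 46.9 and 41.7 TPM, and Mcl1, a survival protein, at 43.7 and 39.1 TPM. Sgk1, a kinase induced by glucocorticoids and serum, followed at 33.1 and 22.8 TPM, and Klf6, a zinc finger factor, at 23.8 and 25.8 TPM. Of the 21 averaging at least 100 counts, 11 were lower and 10 higher in replicate 2, with a median log2 ratio of -0.00. Scaled by the ERCC spike-ins, 9 were lower and 12 higher. Only Egr3 passed 1.5-fold, and none passed 2-fold. The counting interval lay below 0 in 6 and above 0 in 4 of the 21, beside 20.8% and 21.7% of all genes tested.

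**Figure D3:**
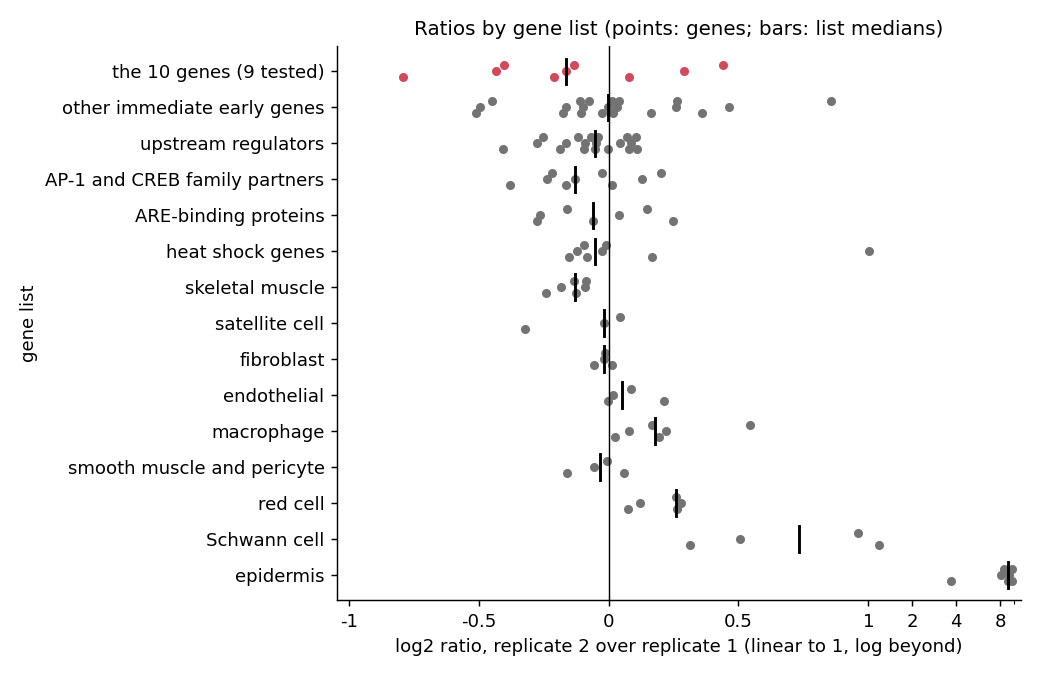
Log2 ratio, replicate 2 over replicate 1, of each gene averaging at least 100 counts in 15 lists (points) with list medians (black bars); the axis is linear to 1 and logarithmic beyond. The 9 tested genes of the 10 (red) lie between -0.79 and 0.44 on both sides of 0, while all 7 tested epidermis genes lie at 3.71 or more.

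The regulators that act on these genes were measured in both libraries. None of the 19 upstream regulators listed was below 1 TPM in either library, and their median was 19.6 TPM ± 1.58 (SD, n = 2). Rps6ka3, the gene of a kinase that acts on factors of immediate early transcription, stood at 43.9 and 45.4 TPM. Elk4, a partner of serum response factor, stood at 37.1 and 39.3 TPM, and Srf, the gene of that factor, at 33.2 and 36.3 TPM. None of the 19 passed 1.5-fold, and the median log2 ratio was -0.05, with 13 lower and 6 higher in replicate 2. The counting interval lay below 0 in 4 and above 0 in 3. The lowest ratio was that of Mrtfa, a cofactor of serum response factor, at 22.7 and 18.5 TPM and -0.41 (-0.50 to -0.32), below the 5th percentile of all genes. Among 11 partners of the AP-1 and CREB family, 9 reached 1 TPM, led by Atf4, a factor of the stress response, at 53.0 and 52.2 TPM. Of the 9 tested none passed 1.5-fold, with a median log2 ratio of -0.13. All 7 AU-rich element binding genes reached 1 TPM, led by Hnrnpd at 97.2 and 113 TPM, and none of them passed 1.5-fold, with a median log2 ratio of -0.06. ERCC scaling raised every log2 ratio by 0.07, which brought the medians of the upstream regulators and of the AU-rich element binding genes to 0.02 and 0.01, on the other side of 0.

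Heat shock genes, which respond to other kinds of stress, were also close between the animals, with a median log2 ratio of -0.05 over 8 genes, or 0.01 with ERCC scaling. Hspa1b, an inducible member, was the exception at 1.64 and 3.31 TPM, a log2 ratio of 1.01 (0.69 to 1.32). Its reads are shared with the near-identical Hspa1a, at 1.79 and 2.02 TPM, and the split between them is uncertain.

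The libraries also differed in the RNA of marker genes of other cell types, and these values stand beside the ratios above. The 8 epidermis markers summed to 10.7 TPM in replicate 1 and 983 TPM in replicate 2. All 7 averaging at least 100 counts were over 2-fold higher in replicate 2. The keratin genes Krt1 and Krt14 had 23 and 3 counts in replicate 1 against 17262 and 1879 in replicate 2, and Dsg3, a desmosomal cadherin, had 0 against 144. The 4 Schwann cell markers were all higher in replicate 2, with a list median log2 ratio of 0.73 and a summed level of 239 and 528 TPM. All 6 macrophage markers were higher in replicate 2, with a median of 0.18 and Ptprc highest at 0.54, but the counting interval lay above 0 in only 2. All 5 red cell genes were higher, with a median of 0.26, and the interval lay above 0 in 3, beside 21.7% of all genes tested. The 6 skeletal muscle markers were all lower, with a median of -0.13. Markers of fibroblasts, endothelium, smooth muscle and satellite cells had medians between -0.03 and 0.05, or 0.04 and 0.12 with ERCC scaling. The satellite cell median rests on 3 genes, among them Pax7, a transcription factor of these cells, at -0.32 (-0.44 to -0.20), and was -0.17 over all 4 listed. The directions of the skeletal muscle, macrophage, red cell, Schwann cell and epidermis genes were the same under both. The part of these differences in the ratios of the 10 genes was not tested.

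The assignment of reads to transcripts was firm for some members and not for others. Annotated transcripts numbered 1 for Jun, Jund and Ier2, 2 for Junb, Egr1 and Zfp36, 3 for Atf3, 4 for Fos and Nr4a1, and 7 for Fosb. For Egr1 the shorter Egr1-202 held 86.1% and 86.2% of the gene in the 2 libraries from alignments and 79.3% and 80.9% directly from reads. For Zfp36 the 1-exon Zfp36-202 held 67.5% and 79.2% from alignments and 62.7% and 72.9% from reads. Both genes thus had the same leading transcript in every library and quantification.

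For Nr4a1 the quantifications gave opposite answers. From alignments Nr4a1-201 held 78.7% and 64.1% of the gene, but directly from reads Nr4a1-202, which starts 12577 bases further upstream and has the same 1803 coding bases, held 87.9% and 93.5%. The start site in use is therefore not settled by these tables, and the promoter stretch printed above belongs to Nr4a1-201. Fosb was spread over several transcripts that differed between the libraries: Fosb-207 had 0 counts in replicate 1 and 31.8 in replicate 2, and Fosb-202 had 32.2 and 0. At 101 and 65 counts in all, no change of form can be read from them.

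For Fos the coding transcript Fos-201 held 90.4% and 77.3% from alignments, and 74.9% and 48.2% directly from reads. The rest was assigned to the short noncoding forms Fos-202, Fos-203 and Fos-204, with 21.7 counts of Fos-202 in replicate 2 and 0 in replicate 1. Because so few counts on a short transcript weigh heavily in TPM, the level of Fos directly from reads was 12.5 and 13.0 TPM, higher in replicate 2, while its counts from the same reads were 400 and 274. The count ratio from reads, at -0.45, had the sign of that from alignments. Atf3-201, the transcript from the nearer start site, led in every library and quantification, from 48.1% to 87.9% of its gene, and the longer-range Atf3-203 was assigned 0 and 57.7 counts from alignments but 52.6 and 0.162 from reads.

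**Figure D4:**
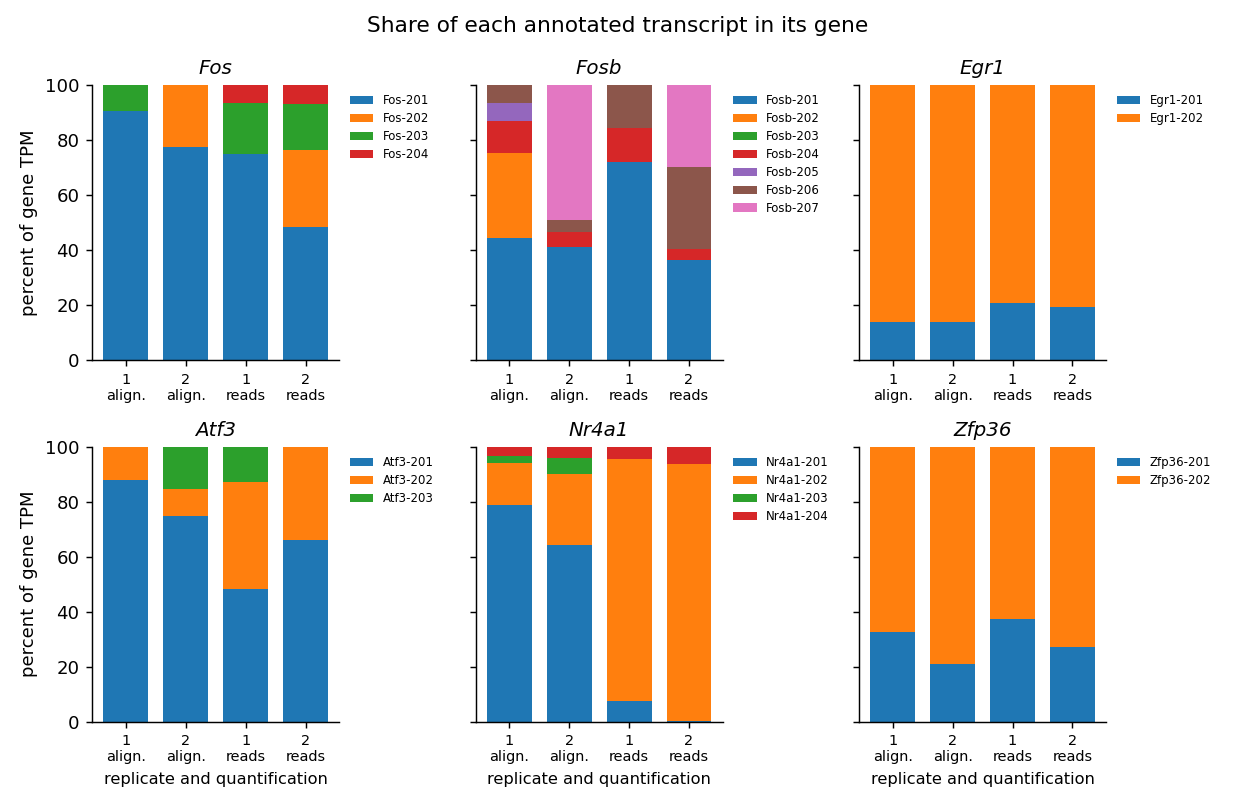
Percent of the gene's TPM held by each annotated transcript (colours) of 6 genes, in replicates 1 and 2, from alignments (left pair of bars) and directly from reads (right pair). Egr1 and Zfp36 show the same leading transcript in all 4 bars, whereas for Nr4a1 the leading transcript changes with the quantification, from 78.7% Nr4a1-201 to 87.9% Nr4a1-202 in replicate 1.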

How the data were processed

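Total RNA-seq libraries of 2 animals were analysed as 1 group of 2 replicates. Where nothing else is said, values come from the deposited gene table, whose columns carry RSEM's names, per the file headers: expected counts, which need not be whole, and TPM, scaled by the authors' quantifier over all entries. A deposited transcript table adds isoform percent, the share of a gene's level assigned to a transcript, per the file headers. A further deposited transcript table, made directly from reads, gives estimated counts and TPM under kallisto's column names. Build mm10 and annotation GENCODE M21 are per the notes deposited with each library, and aligner, program versions and use of strand are not stated there. Reads carried no molecular identifiers in these files, so counting intervals cover counting error only.

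Log2 ratios used unrounded expected counts plus a prior count of 0.5, scaled by TMM in edgeR 4.0.16 (R 4.3.3) over genes averaging at least 100 counts. Exact Clopper-Pearson 95% intervals used rounded counts. Numbered entries that name no gene (26248, with 4 and 6 counts) and spike-ins were left out. The calculation of the ratio and interval was checked on simulated counts that held counting error only. That check cannot show how the interval covers spread between animals or error in assigning reads. No gene was tested between conditions, and no gene was sought for likeness of pattern, since 2 libraries of 1 group give none. Named were all members, from the other lists up to 4 genes each by mean TPM, and genes past 2-fold; Fosl1, Fosl2, Egr2, Egr3, Zfp36l2, Hspa1a, Mrtfa, Krt14, Dsg3, Ptprc and the genes that overlap members were named after their values were seen. The members and the 15 lists were chosen with earlier results of these data known. Alternatives were DESeq2 1.42.0 size factors, total counts, ERCC scaling, other prior counts, pseudocounts of 0.1 and 1, other filters, the quantification from reads, and a shorter promoter window. Motif shares used Python 3.11.15. Some genes of the other lists are not reported here.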

Additional observations from a re-analysis of the deposited data

How the results depend on the processing

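The median of the 10 levels, 8.39 TPM, was 13.6 TPM directly from reads and 20.1 TPM when TPM was rescaled over protein-coding genes outside the mitochondrial genome, and 7.74 to 9.04 TPM with either library left out. The rescaling multiplies all genes of a library by a common factor, 2.39 in replicate 1 and 2.40 in replicate 2. The order of levels was the same under it, which is therefore no check of that order. Directly from reads Atf3, Ier2 and Fos changed places. The number of members past 2-fold was 0 under all 10 alternatives, and the number past 1.5-fold was 1, Egr1, under 9 of them and 2 by counts made directly from reads, which added Fosb. The count of members whose interval left out 0 was 8, and 7 by counts directly from reads, without Junb. The log2 ratios of the 10 genes kept their sign in all 100 comparisons with an alternative, 10 for each of 10 settings, and Jund moved outside its counting interval with ERCC scaling, at -0.07. The exception lies outside those settings: Fos in TPM directly from reads, at 0.05. No paired analysis was possible because there is 1 group. Of 178 comparisons for single genes, list medians and promoter counts, these ratios included, 24 moved by more than their spread or counting error: the levels of the 10 genes under both other TPM scales, all higher, Jund as above, the satellite cell median, at -0.17 under both lower count limits, and the promoters with TATAAA, 1 in place of 2 without the bases after the start. The number of comparisons that moved is no measure of stability, because many outcomes were fixed by the arithmetic. With 2 libraries, leaving 1 out cannot move a level by more than its SD. A change of scaling shifts the log2 ratios of all genes by the same amount, and the protein-coding rescaling raises every level by its factor. Depth limits Fosb most, with 65 counts in replicate 2.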
